A study of Mus musculus with 32 samples.

Results

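The hippocampus of *Kmt2a*-*Kdm5c* double-mutant (DM) mice was set against the amygdala of the same animals across all genes. KMT2A is a writer and KDM5C an eraser of methylation at lysine 4 of histone H3 (H3K4). The DM mice were adult males that carried 1 intact copy of *Kmt2a* and no intact copy of *Kdm5c* (*Kmt2a*+/-, *Kdm5c*-/y). Each was an F1 animal with a 129S1/SvImJ father heterozygous for *Kmt2a* and a C57BL/6J mother heterozygous for *Kdm5c*. Both deletions were inherited and present in every cell of the body, so a difference between regions cannot be tied to loss of either gene in 1 cell type. The labels give each tissue sample the number of its animal, and 8 of the 32 libraries of the series were chosen in this way: the amygdala and the hippocampus of DM mice 1 to 4. WT, *Kmt2a*-HET (*Kmt2a*+/-) and *Kdm5c*-KO (*Kdm5c*-/y) mice of the same cross, with 8 libraries each, were used only to test whether a region difference in DM differed from theirs. The tables held 53715 genes besides the ERCC spike-in sequences, and 28522 of them had a count in at least 1 of the 8 DM libraries.

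The hippocampus is a folded sheet of pallial cortex, built mainly from glutamatergic pyramidal neurons of the fields CA1, CA2 and CA3 and from granule neurons of the dentate gyrus, and it serves spatial and episodic memory. The amygdala is a cluster of nuclei of mixed origin that serves fear and social behaviour. Its basolateral nuclei hold cortex-like glutamatergic neurons, its central nucleus and intercalated cells are GABAergic and related to the striatum, and its medial nucleus receives olfactory input and responds to sex steroids. The striatum, hypothalamus, thalamus and piriform cortex lie next to the amygdala, and the choroid plexus, the secretory tissue of the brain ventricles, borders the hippocampus and part of the amygdala.

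The 8 libraries held 20599375 to 27798976 gene counts, and 3 counts, taken as the floor of detection, equalled 0.108 to 0.146 CPM (counts scaled to the library total). Gene counts were 23037679 ± 1894039 in the amygdala and 25437135 ± 2299835 in the hippocampus (SD, n = 4, exact paired permutation test, two-sided p = 0.125, the smallest p that 4 pairs allow). At the level of the whole gene, *Kmt2a* was 3013 to 5429.7 in amygdalae against 3237 to 6316 in hippocampi and *Kdm5c* was 1226 to 1371 in amygdalae against 1428 to 1543 in hippocampi in normalised counts. Reads from the intact exons of a deleted allele are still counted, so these totals do not test the genotype labels. Several libraries stood apart in markers of neighbouring tissue. Choroid plexus genes were high in amygdala 1 and 3 and in hippocampus 2 and 4, hypothalamic genes were high in amygdala 4, and activity-induced genes were high in both regions of mice 1 and 3. Results that turned on these libraries are given also without them.

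The region of origin separated the 8 libraries along the first principal component, which accounted for 80.6% of the variance over the 500 genes that varied most, and the 4 hippocampi and 4 amygdalae fell on opposite sides of it. Of 19559 genes tested, 5946 (30.4%) were differentially expressed genes (DEGs) between the regions at an adjusted p under 0.1 in DESeq2 with the mouse as a block. Of these, 3045 (15.6% of tested genes) were higher in the hippocampus and 2901 (14.8%) were lower. At 2-fold or more, 792 DEGs (4.05%) were higher and 1141 (5.83%) were lower, together 9.88% of tested genes, and at 8-fold or more 106 were higher and 277 were lower. In 5664 DEGs, 95.3% of all, the difference had the same direction in 4 of 4 mice, and in 4567 the 4 values of one region did not overlap the 4 of the other. Over all genes tested, 27.6% had ranges that did not overlap. The median log2 fold change, hippocampus to amygdala, was -0.0048 over all genes tested, and the median size among DEGs was 0.63.

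**Figure D1:**
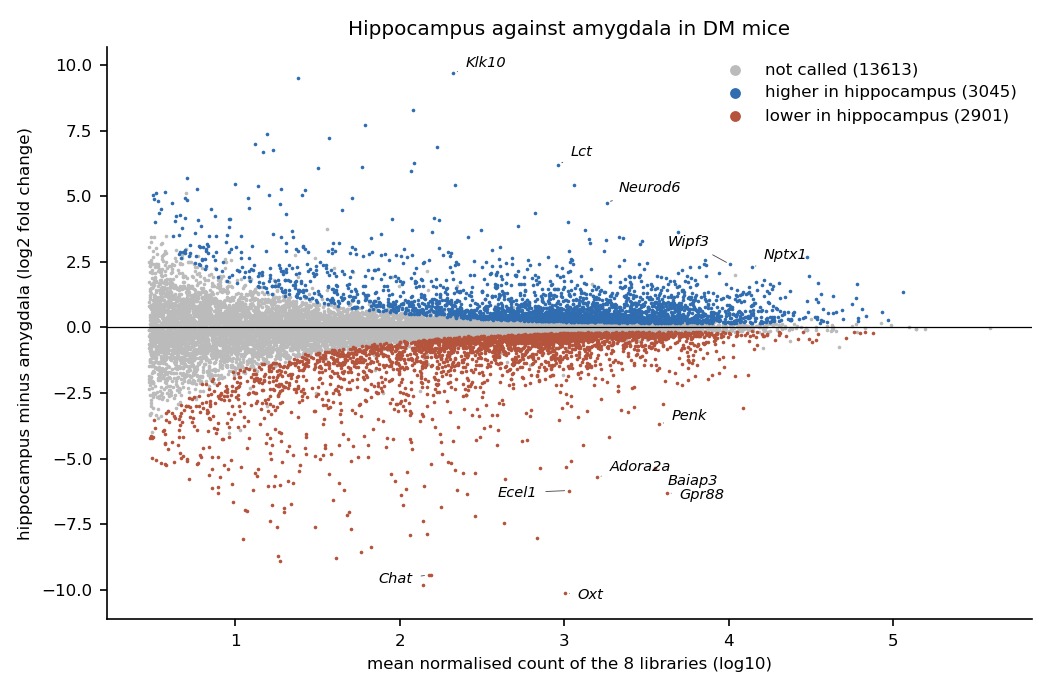
Each point is 1 of 19559 genes tested, with the mean normalised count of the 8 DM libraries on a log10 axis and the log2 fold change of hippocampus to amygdala on the vertical axis. Blue marks the 3045 genes higher and red the 2901 lower in the hippocampus, and the lower side holds more points beyond 8-fold (277 against 106).

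Scaling by spike-in RNA in place of the default size factors moved the median log2 fold change of all genes to 0.39 and left 2614 DEGs, of which 1991 (76.2%) were higher in the hippocampus, against 51.2% with the default. Spike-in RNA made up 0.173 to 0.343% of amygdala counts and 0.111 to 0.254% of hippocampus counts. All log2 fold changes are therefore relative to the other genes of the library. Counts of calls given below under spike-in scaling hold this shift of all genes. Over all 19031 genes tested under it, 1991 were called higher and 623 lower. With the default, 15.6% of tested genes were higher and 14.8% lower, and the counts of each list below stand beside these shares. The libraries measure tissue, so fewer cells of a type and less RNA per cell cannot be told apart in any value.

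Values are given as normalised counts, that is, expected counts divided by the size factor of the library, in the order of mice 1 to 4, and log2 fold changes are hippocampus to amygdala ± SE from the blocked fit of 4 mice, given in parentheses after the counts. *Neurod6*, a bHLH transcription factor of pallial glutamatergic neurons (chr6:55677822-55681263, minus strand on build mm10, as all positions here), had the smallest adjusted p among genes higher in the hippocampus. Its values were 152, 145, 134 and 85.1 in amygdalae against 4416, 3338, 3117 and 3087 in hippocampi. The 2 regions were far from overlapping, and the log2 fold change was 4.76 ± 0.13 (adjusted p = 1.17e-288). *Lct*, which encodes lactase and is a marker of dentate granule cells (chr1:128284756-128328318, minus strand), had the largest fold change of the 8 DEGs with the smallest adjusted p on this side. It was 31.5, 23.03, 17.002 and 26.9 in amygdalae against 2099, 1941, 1697 and 1515 in hippocampi and differed by 6.21 ± 0.20 (adjusted p = 4.75e-212). All 4 amygdalae were low. *Nr3c2*, the mineralocorticoid receptor (chr8:76899442-77245012, plus strand), was 991, 1135, 927 and 874 in amygdalae against 5326, 6018, 4854 and 5243 in hippocampi. Its groups were tight and far apart, with a log2 fold change of 2.45 ± 0.08 (adjusted p = 6.92e-202). *Cabp7*, a calcium-binding protein (chr11:4736892-4746778, minus strand), was 669, 669.6, 696 and 901 in amygdalae against 10780.000, 8752, 8685 and 8145 in hippocampi, a log2 fold change of 3.63 ± 0.12 (adjusted p = 3e-197). Amygdala 4 was the highest of its group. The others of this set were *Wipf3*, which binds regulators of actin (2.41 ± 0.07), *Iqgap2*, a scaffold protein (3.73 ± 0.11), *Nptx1*, a pentraxin that clusters AMPA receptors (2.29 ± 0.07), and *Tnxb*, the matrix protein tenascin X (3.21 ± 0.11), and in all of them the 2 regions did not overlap.

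On the other side, *Penk*, the enkephalin precursor (chr4:4133531-4138819, minus strand), was 7628, 7995, 6989.6 and 5484 in amygdalae against 606, 531, 571 and 463 in hippocampi. Mouse 4 was the lowest of its region on both sides, and the regions did not overlap. The log2 fold change was -3.69 ± 0.09, with an adjusted p too small to be stored as other than 0. *Baiap3*, which acts in dense-core vesicle trafficking (chr17:25242659-25256364, minus strand), was 6711, 6701, 5999.5 and 8457 in amygdalae against 105, 196, 195 and 185 in hippocampi. Hippocampus 1 was the lowest and amygdala 4 the highest, and the log2 fold change was -5.38 ± 0.15 (adjusted p = 1.59e-289). *Adora2a*, the adenosine A2a receptor (chr10:75316877-75334784, plus strand), was 3056, 4090.5, 3287 and 2004 in amygdalae against 61.8, 61.9, 52.7 and 56.3 in hippocampi. *Drd2*, the dopamine D2 receptor (chr9:49340627-49408177, plus strand), was 1991, 2702, 2148 and 1168 in amygdalae against 47.9, 53.9, 47.96 and 43.9 in hippocampi. Both mark the indirect-pathway neurons of the striatum, and both were highest in amygdala 2 and lowest, within the amygdala, in mouse 4. Their log2 fold changes were -5.71 ± 0.16 (adjusted p = 3.87e-271) and -5.33 ± 0.17 (adjusted p = 1.85e-207). *Tac1*, the substance P precursor (chr6:7554879-7565834, plus strand), was 1239.97, 1620.2, 1281 and 1395 in amygdalae against 33.2, 29.9, 35.7 and 36.05 in hippocampi, a log2 fold change of -5.35 ± 0.18 (adjusted p = 2.28e-194). *Ecel1*, a peptidase of the endothelin-converting family (chr1:87147655-87156521, minus strand), was 2135, 2145, 1837 and 2312 in amygdalae against 23.96, 20.96, 41.4 and 27.04 in hippocampi, which gave -6.22 ± 0.21 (adjusted p = 2.2e-192). Neither gene overlapped between the regions. *Peg10*, an imprinted gene of retrotransposon origin (-3.41 ± 0.11), and *Cpne5*, a copine that binds membranes in the presence of calcium (-2.43 ± 0.08), completed the 8 DEGs with the smallest adjusted p on this side.

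**Figure D2:**
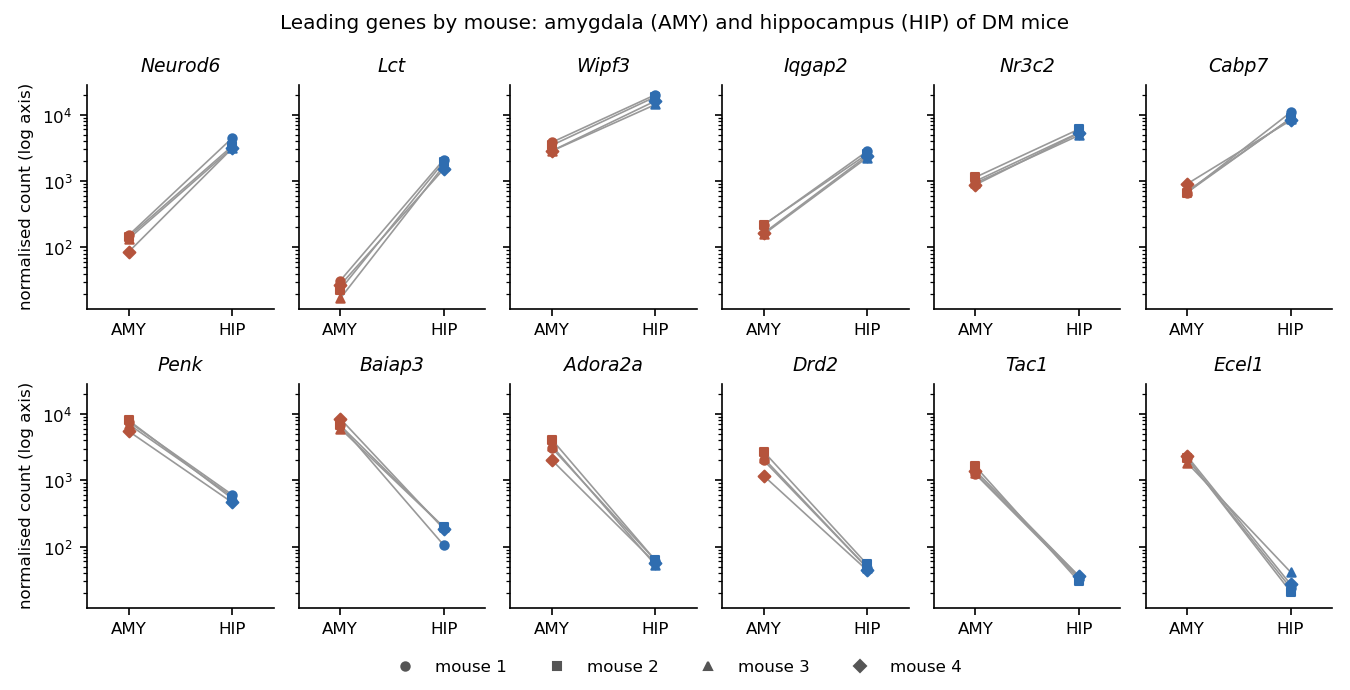
Normalised counts (log axis) of 12 leading genes in the amygdala (AMY) and hippocampus (HIP) of DM mice, with a line joining the regions of 1 mouse and a symbol for each mouse. All 4 lines rise for the 6 genes of the upper row and fall for the 6 of the lower row, and *Adora2a* and *Drd2* are lowest in amygdala 4 among the amygdalae.

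The largest fold changes were found in genes that 1 region hardly expressed. *Klk10*, a kallikrein protease, was 0, 0.921, 0 and 1.08 in amygdalae against 565, 491, 279 and 358 in hippocampi. *Pla2g2f*, a secreted phospholipase A2, was 0.986, 0, 0 and 2.15 in amygdalae against 224, 258, 275 and 201 in hippocampi. With at most 3 counts over the 4 amygdalae, neither gene is given a fold. *Slc9a4*, a sodium-proton exchanger (1.08 to 6.45 in amygdalae against 198 to 296 in hippocampi; log2 fold change 6.28 ± 0.52), and *Krt2*, a keratin (0.986 to 5.00 in amygdalae against 96.8 to 332 in hippocampi, 5.98 ± 0.52), were low but counted in every amygdala. In the opposite direction *Oxt*, the oxytocin precursor, was 972, 1179.9, 1174 and 4798 in amygdalae against 2.77, 0.998, 0.940 and 1.13 in hippocampi. *Lhx8*, a transcription factor of basal forebrain cholinergic neurons, was 273, 313, 216 and 312 in amygdalae against 0, 0, 0 and 1.13 in hippocampi. *Chat*, the enzyme of acetylcholine synthesis, was 239, 381, 263 and 317 in amygdalae against 0, 2.00, 0 and 0 in hippocampi. Both cholinergic genes held at most 3 counts in any hippocampus and 216 or more normalised counts in every amygdala.

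Markers of the hippocampal fields were examined as a check of the tissue label. Of 10 markers of CA1 pyramidal cells, 9 were higher in the hippocampus, with a median log2 fold change of 1.42. *Fibcd1*, a membrane receptor restricted to CA1 within the hippocampus, was 563, 637, 579 and 393 in amygdalae against 6671, 5369.8, 4513 and 5015 in hippocampi (3.32 ± 0.13, adjusted p = 6.83e-152). *Spink8*, a protease inhibitor, was 9.86, 9.21, 11.001 and 8.62 in amygdalae against 548, 397, 395 and 348 in hippocampi (5.44 ± 0.30, adjusted p = 5.01e-72). Both were without overlap. *Wfs1*, the endoplasmic reticulum protein wolframin, which also labels the amygdala, was the exception, with 3947 to 5606 in amygdalae against 3187 to 7404 in hippocampi (0.02, adjusted p = 0.971). For CA3, 8 of 9 markers were higher and 1 lower (median 1.54). The smallest adjusted p was that of *Homer3*, a postsynaptic scaffold (223 to 298 in amygdalae against 1587 to 2169.6 in hippocampi, 2.92 ± 0.11). *Coch*, an extracellular matrix protein, was the marker that went the other way (324 to 470.2 in amygdalae against 49.6 to 80.9 in hippocampi, -2.62 ± 0.18). The short CA2 list was split. *Rgs14*, a regulator of G-protein signalling, was higher (930.1 to 1292 in amygdalae against 2853 to 4220.4 in hippocampi, 1.52 ± 0.09), whereas *Pcp4*, which binds calmodulin, was lower (4767 to 6218 in amygdalae against 1531 to 2447 in hippocampi, -1.61 ± 0.10), and in all 2 of 8 were higher and 4 lower.

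Dentate granule cell markers gave the highest median of the 41 lists, 2.27, with 11 of 12 higher in the hippocampus and 0 lower. *Prox1*, the homeobox factor that specifies granule cells, was 576, 442, 761 and 321 in amygdalae against 1916, 2457, 2374 and 2877 in hippocampi (2.25 ± 0.35, adjusted p = 1.02e-09). *Dsp*, the junction protein desmoplakin, was 203, 13.8, 39.003 and 50.6 in amygdalae against 2649.8, 2118, 1405 and 2766 in hippocampi (5.45 ± 0.66, adjusted p = 2.62e-15). Amygdala 1 held more *Dsp* than the other amygdalae, yet far less than the lowest hippocampus. *C1ql2*, a synaptic organiser of mossy fibres, was 332, 257, 308 and 329.6 in amygdalae against 1816, 1484, 2192 and 2077 in hippocampi (2.62 ± 0.11, adjusted p = 2.07e-122). Genes of immature granule cells did not follow. Of 9 tested genes of dentate neurogenesis, 1, *Neurod1*, was higher (95.8 to 116 in amygdalae against 429 to 565 in hippocampi, 2.29 ± 0.16) and 4 were lower (1 higher and 1 lower under spike-in scaling), among them *Dcx*, the microtubule protein doublecortin (382 to 573 in amygdalae against 179 to 332 in hippocampi, -0.91 ± 0.14), and *Eomes*, a transcription factor of intermediate progenitors (19.4 to 98.6 in amygdalae against 3.69 to 5.64 in hippocampi, -3.21 ± 0.62). *Sox11*, a factor of new neurons, was lower as well (-0.49 ± 0.12).

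Transcription factors were grouped by the pallial or subpallial origin of the neurons they mark. Of 17 pallial factors, 13 were higher in the hippocampus and 1 lower (median 1.32), and 14 had ranges that did not overlap. *Neurod2*, a bHLH factor of glutamatergic neurons, was 603, 586, 486 and 628 in amygdalae against 6525, 5532, 4479 and 4424 in hippocampi (3.17 ± 0.11, adjusted p = 2.45e-184). *Bhlhe22*, of the same class, was 768, 573, 610.1 and 891 in amygdalae against 4196, 3393, 3269 and 3476 in hippocampi (2.35 ± 0.11, adjusted p = 5.24e-95). *Zbtb20*, a repressor that specifies hippocampal identity, was 1549, 2839.7, 2800.2 and 1912 in amygdalae against 5719, 12407, 7087 and 10459.8 in hippocampi (1.95 ± 0.23, adjusted p = 7.31e-16). The spread of *Zbtb20* within each region was about 2-fold, with mouse 1 the lowest in both, and the regions stayed apart. *Emx1*, a homeobox factor of the dorsal pallium, differed by 1.32 ± 0.20. *Nr2f2*, a nuclear receptor of ventral and caudal territories, was the pallial factor that was lower (951 to 1168 in amygdalae against 241 to 748 in hippocampi, -1.28 ± 0.32).

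Of 24 subpallial and amygdalar factors, 22 were lower in the hippocampus and 1 was higher (median -2.54). *Isl1*, a factor of striatal and central amygdalar neurons, was 211, 227, 205 and 182 in amygdalae against 0, 0.998, 4.70 and 3.38 in hippocampi (-6.77 ± 0.88, adjusted p = 3.4e-13). *Foxp2*, a forkhead factor of medium spiny and intercalated neurons, was 699, 1041, 726 and 506 in amygdalae against 22.1, 53.9, 36.7 and 23.7 in hippocampi (-4.47 ± 0.20, adjusted p = 1.32e-107). *Zfhx3*, a zinc-finger homeobox factor, was 555, 829.9, 933 and 711 in amygdalae against 82.95, 214, 230.4 and 158 in hippocampi (-2.21 ± 0.16, adjusted p = 2.68e-40). No amygdala overlapped a hippocampus for these. *Meis1* (-2.55 ± 0.26) and *Meis2* (-1.97 ± 0.13), TALE homeobox factors, and *Nkx2-1*, a factor of the medial ganglionic eminence and hypothalamus (200.02 to 242 in amygdalae against 7.52 to 17.5 in hippocampi, -4.25 ± 0.32), were lower as well. *Lhx9*, a LIM homeobox factor, was the member that was higher, but its values overlapped (53.9 to 217 in amygdalae against 186 to 253 in hippocampi, 0.93 ± 0.31, adjusted p = 0.0143) and the call was lost without mouse 4.

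Promoter sequence is shown for 5 genes chosen after their values were seen, from RefSeq on build GRCm38.p6, as the 250 bases before the annotated start. RefSeq entries were at hand for 463 of the 611 genes of the lists. The capitals in *Neurod2* mark CAGATG, an E-box bound by NeuroD factors. In *Nr4a3*, an orphan nuclear receptor induced by activity, they mark TGACGT, the core of the cAMP response element, and in *Gpr6* and *Cartpt* its palindrome TGACGTCA, each match of which also holds a match of the shorter motif. In *Rarb*, the retinoic acid receptor beta, they mark the direct repeat with a spacer of 5 bases known as the retinoic acid response element.
*Neurod2*, chr11:98329646-98329895, minus strand: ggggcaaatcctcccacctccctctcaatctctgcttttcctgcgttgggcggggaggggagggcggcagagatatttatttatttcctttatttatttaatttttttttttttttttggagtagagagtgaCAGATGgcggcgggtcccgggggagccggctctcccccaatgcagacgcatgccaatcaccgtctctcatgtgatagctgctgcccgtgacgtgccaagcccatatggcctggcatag
*Nr4a3*, chr4:48045055-48045304, plus strand: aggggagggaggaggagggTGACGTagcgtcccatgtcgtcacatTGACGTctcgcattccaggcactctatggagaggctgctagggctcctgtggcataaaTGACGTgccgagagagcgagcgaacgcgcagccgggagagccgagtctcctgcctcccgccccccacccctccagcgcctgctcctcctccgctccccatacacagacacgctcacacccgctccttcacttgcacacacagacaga
*Rarb*, chr14:16575477-16575726, minus strand: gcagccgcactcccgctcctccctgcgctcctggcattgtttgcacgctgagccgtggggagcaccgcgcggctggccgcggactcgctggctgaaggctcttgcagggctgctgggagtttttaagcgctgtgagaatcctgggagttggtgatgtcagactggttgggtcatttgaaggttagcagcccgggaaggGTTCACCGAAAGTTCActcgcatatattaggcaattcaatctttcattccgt
*Gpr6*, chr10:41072291-41072540, minus strand: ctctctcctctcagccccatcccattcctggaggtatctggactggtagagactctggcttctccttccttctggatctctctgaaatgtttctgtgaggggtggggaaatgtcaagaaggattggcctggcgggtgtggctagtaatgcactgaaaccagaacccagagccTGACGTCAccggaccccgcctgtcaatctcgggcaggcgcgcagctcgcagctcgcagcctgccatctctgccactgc
*Cartpt*, chr13:99900684-99900933, minus strand: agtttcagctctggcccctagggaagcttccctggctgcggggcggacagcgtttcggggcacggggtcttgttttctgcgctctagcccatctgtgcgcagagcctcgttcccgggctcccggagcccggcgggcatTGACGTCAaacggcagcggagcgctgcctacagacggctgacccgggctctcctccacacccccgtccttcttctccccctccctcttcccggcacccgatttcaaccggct
The match began 118 bases before the start in *Neurod2*, 52 in *Rarb*, 78 in *Gpr6* and 112 in *Cartpt*, and the 3 matches in *Nr4a3* lay between 231 and 147 bases before it. Their log2 fold changes were 3.17 ± 0.11 for *Neurod2*, 3.37 ± 0.35 for *Nr4a3*, -2.57 ± 0.21 for *Rarb*, -5.55 ± 0.27 for *Gpr6* and -4.08 ± 0.29 for *Cartpt*. Searched on both strands from 250 bases before to 50 after the start, CAGATG was present in 17.2% of all 32851 promoters, in 12.9% of those of tested genes, in 15.4% of those of genes at least 2-fold higher in the hippocampus and in 15.3% of those at least 2-fold lower. For TGACGT these shares were 7.51%, 10.1%, 6.15% and 6.3%, and for TGACGTCA 1.79%, 2.68%, 0.293% and 2.04%. For the retinoic acid response element, 1 form alone was searched, the capitals shown for *Rarb* with any letters in the spacer of 5 bases. The match in *Rarb* thus followed from the form searched. Other forms of the repeat were not searched, so the shares of promoters with any such element are not known. The form searched was found in 0.0335% of all promoters and in 0.0297% of those of tested genes. It was found in 0 of 683 promoters of genes at least 2-fold higher and in 1 of 1031 of those lower, that of *Rarb*. These are matches of letters and not tests of binding.

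Markers of the amygdalar nuclei were examined next. Of 13 central amygdala markers, 8 were lower in the hippocampus and 0 higher (median -2.67), and without mouse 1 there was 1 that was higher. *Crh*, the corticotropin-releasing hormone precursor, was 139, 92.1, 71.01 and 159 in amygdalae against 19.4, 15.97, 27.3 and 9.01 in hippocampi (-2.67 ± 0.43, adjusted p = 4.7e-09). *Tac2*, the neurokinin B precursor, was 157, 169, 229 and 247 in amygdalae against 25.8, 27.95, 27.3 and 24.8 in hippocampi (-2.89 ± 0.27, adjusted p = 1.04e-24). *Prkcd*, a protein kinase C that marks a class of central amygdala neurons and also thalamic relay neurons, did not differ at the threshold (349 to 1713 in amygdalae against 926 to 1319 in hippocampi, 0.44 ± 0.39, adjusted p = 0.483) and varied widely among amygdalae, with mouse 3 the highest and mouse 4 the lowest. *Sst*, the somatostatin precursor, was 2706 to 4682 in amygdalae against 1577 to 3034 in hippocampi (-0.53 ± 0.34, adjusted p = 0.283).

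In the medial amygdala list 8 of 10 markers were lower and 1, *Lhx9*, higher (median -4.06). *Otp*, a homeobox factor, was 216, 229, 209 and 454 in amygdalae against 2.77, 2.99, 0 and 1.13 in hippocampi. *Sim1*, a bHLH-PAS factor, was 64.1, 99.5, 119 and 121 in amygdalae against 0, 0, 0 and 2.25 in hippocampi. Both are also hypothalamic, and amygdala 4 held about 2-fold more *Otp* than the others, whose values lay between 209 and 229. Without mouse 4 the log2 fold change of *Otp* was -6.86, against -7.39 with it, and *Lhx9* was not called. *Esr1*, the estrogen receptor alpha, was 149.8, 134, 137 and 142 in amygdalae against 35.02, 36.9, 30.1 and 40.6 in hippocampi (-1.99 ± 0.27, adjusted p = 3.83e-12). *Calcr*, the calcitonin receptor, was 94.9 to 143 in amygdalae against 0 to 0.922 in hippocampi with a single count over the 4 hippocampi. All 7 markers of the intercalated cells were lower (median -2.96), including *Tshz1*, a zinc-finger factor required for these cells, which differed least (1046 to 1411 in amygdalae against 525 to 729 in hippocampi, -0.98 ± 0.14). *Drd1* and *Ppp1r1b* of this list are also on the striatal list below, and *Foxp2* and *Meis2* are also on the list of subpallial factors.

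The basolateral list, the cortex-like part of the amygdala, was divided, with 3 of 8 markers higher and 3 lower in the hippocampus (median 0.24), and without mouse 4 the higher count was 5, and spike-in scaling gave 3 higher and 1 lower. *Slc17a6*, the vesicular glutamate transporter VGLUT2, was 1653, 1677, 2296 and 1453 in amygdalae against 345, 98.8, 666 and 131 in hippocampi (-2.89 ± 0.50, adjusted p = 8.49e-08). It is also on the thalamic list, and mouse 3 was its highest in both regions, as in the thalamic sum below. *Rspo2*, a Wnt agonist of basolateral neurons, was higher in the hippocampus, with 92.7, 104, 80.01 and 61.4 in amygdalae against 309.7, 258, 360.2 and 267 in hippocampi (1.83 ± 0.22, adjusted p = 6.75e-16). *Etv1*, an ETS factor, was also higher (1.14 ± 0.14). *Lypd1*, a GPI-anchored modulator of nicotinic receptors, was lower by a small amount with overlapping values (1981 to 2720.4 in amygdalae against 1533 to 2144 in hippocampi, -0.36 ± 0.09), and its sign turned under spike-in scaling.

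Lists for the tissues next to the amygdala were examined because a dissection can include them. All 19 markers of striatal medium spiny neurons were lower in the hippocampus, with a median of -3.69. Their summed level was 4379, 5637, 4373 and 3095 CPM in the 4 amygdalae, with mouse 2 the highest and mouse 4 the lowest, against 826, 835, 844 and 781 CPM in the 4 hippocampi. *Ppp1r1b*, the dopamine-regulated phosphatase inhibitor DARPP-32, was 23747, 28049, 20706 and 14981 in amygdalae against 2706, 2834, 2205 and 2445 in hippocampi (-3.07 ± 0.11, adjusted p = 1.84e-167). *Drd1*, the dopamine D1 receptor, was 1034, 1605, 1047 and 819 in amygdalae against 95.9, 136, 121 and 77.7 in hippocampi (-3.38 ± 0.14, adjusted p = 1.21e-124). In each of these genes amygdala 2 was the highest and amygdala 4 the lowest. Intercalated and central amygdala neurons share genes with the striatum, and *Drd2*, *Pdyn*, *Penk* and *Tac1*, 4 of the 13 central markers, are on both lists. *Drd1* and *Ppp1r1b* are on the intercalated and the striatal lists. The part of striatal tissue in these differences was not tested.

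Of 11 tested hypothalamic markers, 10 were lower and 0 higher in the hippocampus (median -5.03, and -3.97 under spike-in scaling). This median is the value of *Hcrt*, described below, which was -3.20 without mouse 4. The summed level was 157, 145, 152 and 451 CPM in the amygdalae, about 3-fold higher in mouse 4, and 5.38 to 6.09 CPM in the hippocampi. *Avp*, the vasopressin precursor, was 1131, 860.3, 817 and 2608 in amygdalae against 23.04, 2.00, 4.70 and 1.13 in hippocampi (-8.02 ± 0.96, adjusted p = 1.61e-15). *Pmch*, the precursor of melanin-concentrating hormone, was 24.6, 29.5, 64.01 and 383 in amygdalae against 1.84, 2.99, 4.70 and 4.51 in hippocampi, and *Hcrt*, the precursor of the orexins, was 0.986, 5.53, 19.002 and 234 in amygdalae against 0, 0.998, 0.940 and 1.13 in hippocampi. Neurons that make *Pmch* and *Hcrt* lie in the lateral hypothalamus, and both genes were highest in amygdala 4. Without mouse 4 the log2 fold change of *Oxt* was -9.47 against -10.13 with it, that of *Avp* was -7.11 against -8.02, and that of *Pmch* was -3.60 against -4.47, and all 3 remained DEGs, whereas *Hcrt*, with 3 counts over the 4 hippocampi, did not (adjusted p = 0.188). *Cartpt*, the CART peptide precursor, was 358, 328, 249 and 392 in amygdalae against 18.4, 32.9, 15.99 and 12.4 in hippocampi (-4.08 ± 0.29, adjusted p = 9.33e-42), with no library far from its group.

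Thalamic markers were lower in 6 of 9 cases and higher in 1, *Lhx9* (median -0.68, and 2 higher and 3 lower under spike-in scaling). The smallest adjusted p was that of *Tcf7l2*, a transcription factor of Wnt signalling in thalamic neurons (477 to 1042 in amygdalae against 122 to 342 in hippocampi, -1.97 ± 0.20). The summed level of the thalamic markers was highest in mouse 3 in both regions (468 CPM in the amygdala and 247 CPM in the hippocampus). Neocortical and piriform markers were mixed, with 4 of 10 higher and 5 lower, and 4 higher and 1 lower under spike-in scaling. *Cux2*, a factor of upper cortical layers, was lower (1729.8 to 1873 in amygdalae against 722 to 1194 in hippocampi, -1.09 ± 0.13), and *Fezf2*, a factor of deep-layer neurons, was higher (77.6 to 132 in amygdalae against 454 to 891 in hippocampi, 2.62 ± 0.19). Of 4 tested pituitary markers 2 were lower: *Gh*, growth hormone, had 29.6, 11.97, 1 and 99.1 in amygdalae against 20.3, 2.99, 0 and 5.63 in hippocampi, with amygdala 4 the highest, and lost its call without mouse 4, and *Pomc*, the precursor of several peptide hormones, was 81.1 to 132 in amygdalae against 39.6 to 64.9 in hippocampi (-1.05 ± 0.28). Under spike-in scaling the count was 1.

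**Figure D3:**
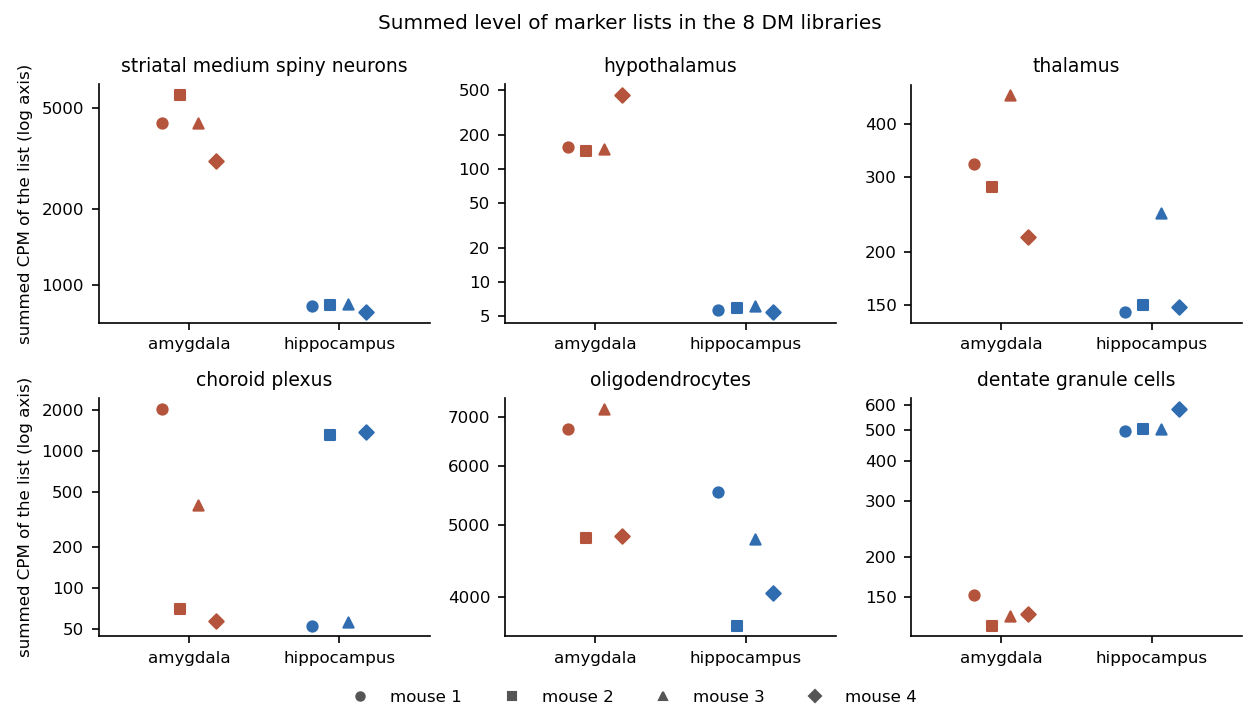
Summed CPM (log axes, each panel with its own range) of 6 marker lists in the 4 amygdala and 4 hippocampus libraries of DM mice, 1 symbol per mouse. Striatal, hypothalamic and dentate granule cell sums do not overlap between the regions, choroid plexus sums are high in amygdala 1 and 3 and hippocampus 2 and 4, and oligodendrocyte sums overlap.

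Choroid plexus genes were high in 2 libraries of each region. *Ttr*, transthyretin, the most abundant transcript of this tissue, was 35529.5, 100.4, 6017 and 30.2 in amygdalae against 306, 23026, 548 and 22061 in hippocampi (log2 fold change 2.0 ± 2.10, adjusted p = 0.581). Of 15 markers, 0 were DEGs with all 4 mice in DESeq2, 0 in edgeR and 0 at an unadjusted p under 0.05, whereas 6 were higher in the hippocampus without mouse 1, 4 were higher without mouse 3, and 2 were lower without mouse 4. *Folr1*, a folate receptor, followed the same libraries (633, 4.61, 124 and 2.15 in amygdalae against 6.45, 492, 11.3 and 506 in hippocampi). Ependymal markers were lower in 4 of 9 cases (median -1.07), a count that was 1 without mouse 1, 2 without mouse 3, 7 without mouse 4 and 0 under spike-in scaling. *Ccdc153*, a protein of cilia, was 181, 105, 183 and 77.6 in amygdalae against 77.4, 60.9, 40.4 and 50.7 in hippocampi (-1.2 ± 0.31, adjusted p = 0.000745), with mice 1 and 3 the highest amygdalae. *Foxj1*, the master factor of motile cilia, was 270.4 to 722 in amygdalae against 156 to 315 in hippocampi (-0.69 ± 0.42, adjusted p = 0.255).

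Relative to the other genes of the library, myelin genes were somewhat lower in the hippocampus. Of 19 oligodendrocyte genes, 12 were DEGs, all lower, with a median of -0.34, and the ranges of all but 1 overlapped. *Cnp*, a myelin phosphodiesterase, was the 1 without overlap (9962, 7430.3, 10381 and 7807 in amygdalae against 7422, 4723, 6327 and 5724 in hippocampi, -0.56 ± 0.08, adjusted p = 6.83e-11). Without mouse 3 the count was 6. Under spike-in scaling it was 0, the median was 0.058, and 7 of the 12 turned sign, among them *Mog* and *Olig2*, a factor of the whole lineage that the precursor list holds too. Precursor genes were lower in 4 of 6 cases, among them *Gpr17*, a receptor of differentiating precursors (-0.32 ± 0.09), and *Pdgfra*, the receptor that marks precursors (-0.23 ± 0.08), both of which turned sign under spike-in scaling. Spike-in scaling left 0 calls in this list, and each omission of a mouse left 1 or 2.

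Astrocyte genes held some of the clearest differences outside neurons. *Gfap*, the glial filament protein, was higher in the hippocampus, with 7112, 5423, 5342 and 5181 in amygdalae against 14162, 11068, 12830.000 and 12483 in hippocampi (1.14 ± 0.08, adjusted p = 1.69e-43). *Itih3*, a hyaluronan-binding matrix protein, was lower, with 4122, 4438, 4716 and 4304 in amygdalae against 762, 855, 1081 and 938 in hippocampi (-2.28 ± 0.09, adjusted p = 1.39e-140). *Agt*, angiotensinogen, was 3755, 3374, 3449 and 3408 in amygdalae against 690.3, 634, 916 and 757 in hippocampi (-2.23 ± 0.11, adjusted p = 8.79e-91). None of these overlapped between regions. *Slc6a11*, the GABA transporter GAT3, was also lower (13018 to 14542 in amygdalae against 4238 to 6079.7 in hippocampi, -1.49 ± 0.08), whereas the glutamate transporter *Slc1a2* was higher (0.60 ± 0.10) and the water channel *Aqp4* did not pass (2386 to 3245 in amygdalae against 2557 to 3142 in hippocampi, adjusted p = 0.998). In all, 2 of 15 astrocyte genes were higher and 9 lower (median -0.20), and 5 were lower without mouse 1. Spike-in scaling gave 2 higher and 3 lower, and 5 of the 9 turned sign. Microglial genes had a median of -0.04, and 1 of 14 passed, *P2ry12*, a purinergic receptor (0.32 ± 0.13, adjusted p = 0.0635), but not without mouse 1, 2 or 4 or under spike-in scaling. Of 13 vascular genes, *Tek*, an endothelial receptor (0.33 ± 0.15), and *Rgs5*, a pericyte regulator of G-protein signalling (0.28 ± 0.11), passed, but *Tek* lost its call whichever mouse was left out, and *Rgs5* without mouse 1, 2 or 4. Both lost it under spike-in scaling, and 2 of 13 is near the 15.6% of all tested genes that were higher. Of 5 blood genes, 0 passed in DESeq2, in edgeR or at an unadjusted p under 0.05. *Hba-a1*, a haemoglobin alpha gene whose counts are uncertain because it has a near-identical copy, *Hba-a2*, was 1055 to 1867 in amygdalae against 1049 to 2007 in hippocampi.

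Genes of GABA synthesis and release were lower in the hippocampus. *Gad2*, which makes GABA, was 8891, 10001, 9235 and 8184 in amygdalae against 2072, 2062, 2623 and 2201 in hippocampi (-2.02 ± 0.09, adjusted p = 1.02e-100). *Slc32a1*, the vesicular GABA transporter, was 9086, 9035, 7143 and 8676 in amygdalae against 2109, 1528, 2190.2 and 1716 in hippocampi (-2.18 ± 0.12, adjusted p = 2.08e-67). *Gad1*, the other GABA-synthesising enzyme, was 8612 to 10491 in amygdalae against 3601 to 5072 in hippocampi (-1.15 ± 0.10). Interneuron markers did not move as 1 group. *Lhx6*, a factor of interneurons from the medial ganglionic eminence, was lower (-1.36 ± 0.14), *Htr3a*, a serotonin-gated channel of caudal interneurons, was higher (0.86 ± 0.23), and *Npy* was 318 to 457 in amygdalae against 216 to 367 in hippocampi (-0.23 ± 0.21, adjusted p = 0.506). Of 15 genes of the list 3 were higher and 6 lower, and without mouse 1 1 was higher.

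Neuropeptide precursors leaned to the amygdala. Of 27, 19 were lower in the hippocampus and 2 higher (median -2.23), and 20 did not overlap between regions. *Cck*, the cholecystokinin precursor, was 1 of the 2, with 2175, 1386, 1871 and 2026 in amygdalae against 10601, 7709, 7277 and 6107 in hippocampi (2.08 ± 0.13, adjusted p = 1.78e-57). *Grp*, the gastrin-releasing peptide precursor, was the other (34.5, 33.2, 22.002 and 30.2 in amygdalae against 131, 36.9, 205 and 124 in hippocampi, 1.86 ± 0.43, adjusted p = 0.000103). *Ucn3*, the precursor of urocortin 3, was 29.6, 40.5, 31.003 and 42.01 in the amygdalae and 0 in all 4 hippocampi, at least 48.2-fold lower when the group is set to a floor of 3 counts. Of the 19 that were lower, 12 are also members of the hypothalamic, striatal or central amygdala lists, and the high value of amygdala 4 in *Oxt* and *Avp* was described above.

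Receptors for these peptides were divided. Of 33, 16 were lower and 7 higher in the hippocampus (median -0.51), against 7 higher and 9 lower under spike-in scaling. *Tacr1*, the substance P receptor, was 437, 482, 403 and 377 in amygdalae against 31.3, 29.9, 30.1 and 29.3 in hippocampi (-3.81 ± 0.21, adjusted p = 6.41e-70). *Galr1*, a galanin receptor, was 67.9 to 87.01 in amygdalae against 0 to 3.76 in hippocampi (-6.58 ± 0.91). Somatostatin receptors parted within 1 family. *Sstr4* was higher, with 134, 134, 126 and 135 in amygdalae against 679, 777, 594 and 665 in hippocampi (2.35 ± 0.14, adjusted p = 1.77e-58), as was *Sstr3* (432 to 527 in amygdalae against 1175 to 1479 in hippocampi, 1.47 ± 0.10), and *Sstr2* (233 to 309 in amygdalae against 139 to 189 in hippocampi, -0.77 ± 0.17) and *Sstr1* (322 to 389.95 in amygdalae against 181 to 328 in hippocampi, -0.51 ± 0.19, adjusted p = 0.0239) were lower. *Npy2r*, a presynaptic receptor of neuropeptide Y, was higher (227 to 299 in amygdalae against 694 to 948 in hippocampi, 1.65 ± 0.15). *Avpr1b*, the vasopressin 1b receptor known from CA2 neurons, was named after its values were seen. It was 0 in all 4 amygdalae and 27.7, 29.9, 8.46 and 39.4 in the hippocampi, at least 35.4-fold higher by the same floor.

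Ionotropic and metabotropic glutamate receptors changed in both directions, with 11 of 25 higher and 8 lower in the hippocampus, and 9 higher and 4 lower under spike-in scaling. *Grin2a*, the NMDA receptor subunit GluN2A, was 1833, 2722, 2469 and 1922 in amygdalae against 9049, 14682, 10259 and 13655 in hippocampi (2.4 ± 0.11, adjusted p = 4.04e-96). *Gria1*, an AMPA receptor subunit, was 9154, 10564, 9999.9 and 8362 in amygdalae against 26297, 25552, 22748 and 24860.3 in hippocampi (1.39 ± 0.09, adjusted p = 2.8e-56), and *Gria2* (1.06 ± 0.07) followed it, while *Gria4*, the fourth subunit, was lower (1604 to 1864 in amygdalae against 800.02 to 1107 in hippocampi, -0.91 ± 0.09). *Grik4*, a kainate receptor subunit of CA3, was higher (1.54 ± 0.11) and *Grik3*, another, was lower (2517 to 3011 in amygdalae against 927 to 1146 in hippocampi, -1.44 ± 0.08). *Grm4*, a presynaptic metabotropic receptor, was lower (1132 to 1931 in amygdalae against 270.4 to 544 in hippocampi, -2.19 ± 0.17), with hippocampus 3 the highest of its region.

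The GABA-A receptor showed a change of subunits. *Gabra5*, the alpha5 subunit of extrasynaptic receptors, was 725, 608, 697 and 608 in amygdalae against 4649, 3781, 3615 and 3732 in hippocampi (2.58 ± 0.09, adjusted p = 3.1e-173). *Gabre*, the epsilon subunit, was 284, 319.6, 259 and 341 in amygdalae against 4.61, 14.97, 9.40 and 4.51 in hippocampi (-5.21 ± 0.37, adjusted p = 3.37e-42). *Gabra2*, another alpha subunit, was higher (0.67 ± 0.12), and the glycine receptor genes *Glra2* (374 to 492 in amygdalae against 60.2 to 86.6 in hippocampi, -2.57 ± 0.18) and *Glra3* (309 to 519 in amygdalae against 44.2 to 95.9 in hippocampi, -2.59 ± 0.21) were lower. In all, 5 of 21 GABA and glycine receptor genes were higher and 9 lower.

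Among 39 tested receptors for monoamines and acetylcholine, 20 were lower and 10 higher (median -0.52). Spike-in scaling gave 10 higher and 9 lower. *Adra1d*, an alpha1 adrenergic receptor, was 149, 83.8, 143 and 117 in amygdalae against 2276, 2029, 1691 and 2011 in hippocampi (4.04 ± 0.16, adjusted p = 7.7e-144). *Htr1d*, a serotonin receptor, was 169, 239, 173 and 158 in amygdalae against 4.61, 3.99, 0.940 and 3.38 in hippocampi (-5.86 ± 0.51, adjusted p = 6.69e-29). The regions did not overlap for either. *Chrm1*, the main muscarinic receptor of forebrain, was higher (2560.2 to 3089 in amygdalae against 6739 to 8785 in hippocampi, 1.41 ± 0.07), as was *Chrm3* (566 to 647 in amygdalae against 1350.4 to 2197 in hippocampi, 1.5 ± 0.13). The dopamine receptors parted, since *Drd1* and *Drd2* were lower and *Drd5*, named after its values were seen, was higher (61.4 to 87.7 in amygdalae against 268 to 455 in hippocampi, 2.13 ± 0.19).

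Potassium channel genes leaned to the hippocampus, with 27 of 57 higher and 14 lower (median 0.30), and 26 higher and 3 lower under spike-in scaling. *Kcnab2*, a beta subunit of shaker-type channels, was 9097, 9119, 10039 and 8831 in amygdalae against 30632, 28329.5, 26635 and 25745 in hippocampi (1.58 ± 0.08, adjusted p = 2.03e-88). *Kcnj3*, a G-protein-gated inward rectifier, was 1146, 1112, 1164 and 1094 in amygdalae against 3150.3, 3254, 3338 and 3318 in hippocampi (1.53 ± 0.08, adjusted p = 2.56e-78). *Kcna5* (454 to 636 in amygdalae against 34.9 to 78.99 in hippocampi, -3.37 ± 0.24), *Kcnh2* (2034 to 2305 in amygdalae against 935 to 1028 in hippocampi, -1.16 ± 0.10) and *Kcnt1* (3299 to 4436 in amygdalae against 1103 to 1818 in hippocampi, -1.42 ± 0.12), which encode voltage-gated, ERG-type and sodium-activated channels, were lower. *Kcna2*, an axonal channel, did not pass (0.09 ± 0.09, adjusted p = 0.572).

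Axon guidance receptors were higher in 18 of 31 cases and lower in 7 (median 0.43), and their ligands in 10 and 14 of 32 (median -0.16). Spike-in scaling gave 17 higher and 2 lower for the receptors and 9 higher and 4 lower for the ligands. *Epha7*, an ephrin receptor, was 1070.4, 1198, 996 and 1016 in amygdalae against 5607, 5367, 4516 and 4591 in hippocampi (2.23 ± 0.08, adjusted p = 2.89e-157). *Epha4*, of the same family, was 1884, 2381, 2217 and 1399 in amygdalae against 8899, 10988, 8644 and 10242 in hippocampi (2.32 ± 0.13, adjusted p = 1.4e-72). *Epha8*, of the same receptor family, was lower (406 to 608 in amygdalae against 72.8 to 134 in hippocampi, -2.27 ± 0.21), and so was *Efna5*, a ligand of that family (271 to 344 in amygdalae against 47.9 to 69.6 in hippocampi, -2.43 ± 0.20). Of the ligands, *Slit1*, a repellent for growing axons, was 2477, 2587, 2160.2 and 2740.5 in amygdalae against 8867, 9989.9, 7708 and 10597 in hippocampi (1.89 ± 0.07, adjusted p = 9.02e-155). *Slit3* (1.31 ± 0.11) and *Sema3e* (1.92 ± 0.15) were higher, and *Sema3a* (308 to 396 in amygdalae against 49.6 to 112 in hippocampi, -2.35 ± 0.22) and *Ntn1*, netrin 1 (752 to 991 in amygdalae against 244 to 335 in hippocampi, -1.5 ± 0.12), were lower. *Plxnd1*, the receptor of SEMA3E, was itself lower in the hippocampus (2927 to 3561 in amygdalae against 1104 to 1566 in hippocampi, -1.36 ± 0.09). Of 14 classical cadherins, which join cells by like-to-like contact, 5 were higher and 6 lower (5 higher and 4 lower under spike-in scaling). *Cdh4* (1154 to 1374 in amygdalae against 327 to 397 in hippocampi, -1.85 ± 0.11) and *Cdh22* (2047 to 2301 in amygdalae against 546 to 734 in hippocampi, -1.76 ± 0.11) had the smallest adjusted p on the amygdala side and *Cdh11* (768 to 945 in amygdalae against 1359 to 1526 in hippocampi, 0.75 ± 0.09) and *Cdh9* (197 to 327 in amygdalae against 537 to 741 in hippocampi, 1.32 ± 0.17) on the hippocampal side, while *Cdh2*, N-cadherin, did not pass (2702 to 2896 in amygdalae against 2684 to 3049.5 in hippocampi, 0.01 ± 0.08, adjusted p = 0.966).

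Genes of retinoid signalling were lower in 7 and higher in 2 of 15 tested cases (median -0.24), and spike-in scaling gave 2 higher and 4 lower. Of all genes tested, 14.8% were lower and 15.6% higher, so the count of higher genes was near the share of all genes. *Rarb*, itself a retinoic acid target, was 438, 603, 436 and 273 in amygdalae against 63.6, 72.9, 78.1 and 70.97 in hippocampi (-2.57 ± 0.21, adjusted p = 9.94e-32). *Rxrg*, the retinoid X receptor gamma of striatal neurons, was 598, 687, 660.1 and 403 in amygdalae against 28.6, 23.96, 37.6 and 39.4 in hippocampi (-4.17 ± 0.24, adjusted p = 3.53e-64). In both, amygdala 4 was the lowest of its region, as for the striatal genes. *Rara* was higher in the hippocampus (201 to 249 in amygdalae against 422 to 659.9 in hippocampi, 1.19 ± 0.14), and so was *Aldh1a1*, an enzyme that makes retinoic acid (889.8 to 1139 in amygdalae against 1442 to 1764 in hippocampi, 0.66 ± 0.09). *Aldh1a2*, a second such enzyme, overlapped (203, 290.1, 54.005 and 311 in amygdalae against 35.02, 44.9, 66.8 and 69.8 in hippocampi, -1.84 ± 0.63, adjusted p = 0.0164), with amygdala 3 as low as the hippocampi.

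Activity-induced genes varied with the mouse as well as with the region. *Fos*, the prototype of this class, was 461, 58.9, 347 and 77.6 in amygdalae against 463, 30.9, 356 and 40.6 in hippocampi. Mice 1 and 3 were several-fold above mice 2 and 4 in both regions, and the region difference did not pass the test (-0.37 ± 0.23, adjusted p = 0.266). *Arc*, which acts in synaptic plasticity, was 2142, 576, 2099 and 408 in amygdalae against 7072, 1652, 4941 and 1374 in hippocampi, high in the same mice, and higher in the hippocampus of each mouse (1.55 ± 0.11, adjusted p = 3.69e-46) although the regions overlapped and the call was lost without the mouse block (adjusted p = 0.122). *Bdnf*, the neurotrophin, was 306, 156, 188 and 203 in amygdalae against 1157, 875, 913 and 956 in hippocampi without overlap (2.23 ± 0.14, adjusted p = 1.45e-57). *Nr4a3*, named after its values were seen, was 367, 182, 363 and 149.7 in amygdalae against 2697, 2754, 2235 and 2513 in hippocampi (3.37 ± 0.35, adjusted p = 4.27e-20), with mice 1 and 3 the highest amygdalae. *Egr3* was higher too (0.85 ± 0.08) and *Dusp1*, a phosphatase, was the 1 member that was lower (329.6 to 833 in amygdalae against 208 to 678 in hippocampi, -0.51 ± 0.14). In all, 13 of 22 were higher (median 0.48), and leaving out a mouse gave 11 to 13.

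Hormone-receptor genes were considered because both regions respond to steroids. *Hsd11b1*, which regenerates active glucocorticoid, was 161, 115, 188 and 88.3 in amygdalae against 821, 722, 801 and 626 in hippocampi (2.47 ± 0.16, adjusted p = 3.2e-50). *Nr3c1*, the glucocorticoid receptor, did not differ at the threshold (1608 to 2143 in amygdalae against 1752 to 2258 in hippocampi, 0.10 ± 0.09, adjusted p = 0.534), unlike the mineralocorticoid receptor *Nr3c2* above, and *Fkbp5*, its co-chaperone and target, was higher (809 to 992 in amygdalae against 1239 to 1689 in hippocampi, 0.70 ± 0.11). Of 12 tested genes of corticosteroid and CRF signalling 5 were higher and 4 lower, and 2 were lower without mouse 1 or without mouse 4. Of 6 sex steroid genes 3 were lower and 0 higher: *Esr1* above, *Greb1*, an estrogen-regulated gene (78.9, 89.3, 80.01 and 95.9 in amygdalae against 3.69, 6.99, 6.58 and 3.38 in hippocampi, -4.07 ± 0.49), and *Cyp19a1*, aromatase, which makes estrogen from androgen (6.46 to 16.8 in amygdalae against 0 to 0.940 in hippocampi).

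Of 24 genes of H3K4 methylation, enzymes and their core subunits, 9 were higher and 2 lower in the hippocampus, with a median of 0.14, and without mouse 1, 2 or 4 the higher count was 5. Spike-in scaling gave 4 higher and 0 lower. *Setd7*, a lysine methyltransferase, was 3231, 3332, 3802 and 3156 in amygdalae against 4607, 4799.8, 4951 and 4779.9 in hippocampi (0.50 ± 0.08, adjusted p = 4.38e-10). *Kdm2b*, a demethylase of the Polycomb pathway, was also higher (467 to 614 in amygdalae against 729 to 924 in hippocampi, 0.62 ± 0.11), and *Smyd3* was lower (758 to 947 in amygdalae against 513 to 552 in hippocampi, -0.69 ± 0.12). *Smyd1*, a methyltransferase best known from muscle, had the largest difference of the list, with 95.6, 101, 148 and 136 in amygdalae against 27.7, 33.9, 77.1 and 46.2 in hippocampi (-1.45 ± 0.29, adjusted p = 5.69e-06). The targeted genes themselves differed by 0.19 ± 0.09 (*Kmt2a*, adjusted p = 0.0945) and 0.20 ± 0.09 (*Kdm5c*, adjusted p = 0.0724), and the values of *Kmt2a* overlapped between the regions. Its call was lost in edgeR (adjusted p = 0.113), under spike-in scaling (0.247), without the mouse block (0.521), with all 32 libraries in the fit (0.33) and without mouse 1, 2 or 4 (0.206, 0.339 and 0.33). That of *Kdm5c* was lost under spike-in scaling (adjusted p = 0.258), with all 32 libraries (0.175) and whichever mouse was left out (0.211 to 0.321).

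The 7 genes known from earlier results of these data to be raised where *Kdm5c* is deleted were compared between the regions, and their choice is no independent evidence of a genotype effect. Between the regions 1 was higher in the hippocampus and 4 were lower. Spike-in scaling gave 1 higher and 3 lower, and 3 were lower without mouse 1, 2 or 3. *Dnah1*, 1 of the 4, turned sign under spike-in scaling. With all 32 libraries in the fit it was not called (-0.26 ± 0.14, adjusted p = 0.16). *Zar1*, an oocyte gene, was 122, 69.1, 82.01 and 94.8 in amygdalae against 10.1, 3.99, 2.82 and 3.38 in hippocampi (-4.25 ± 0.49, adjusted p = 1.66e-16). *Apoc1*, an apolipoprotein of glia, was 207, 170.4, 189 and 141 in amygdalae against 31.3, 20.96, 35.7 and 12.4 in hippocampi (-2.87 ± 0.30, adjusted p = 9.83e-21). *Pnmt*, the enzyme that makes adrenaline, was 109, 109.6, 89.01 and 74.3 in amygdalae against 20.3, 0.998, 10.3 and 13.5 in hippocampi (-3.27 ± 0.52, adjusted p = 3.77e-09). Each was higher in every amygdala than in any hippocampus. *Cacng6*, a gamma subunit of calcium channels, had the opposite pattern (43.4, 34.1, 39.003 and 57.1 in amygdalae against 656, 689.8, 435 and 533 in hippocampi, 3.74 ± 0.22, adjusted p = 4.39e-64). *Tex14*, a germ cell gene, was 119 to 162 in amygdalae against 91.8 to 118 in hippocampi (-0.43 ± 0.24, adjusted p = 0.188), and of 11 tested germline genes 1, *Zar1*, was a DEG in DESeq2 and 3 were in edgeR. Of all genes tested, 30.4% were DEGs in DESeq2.

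Whether these region differences were particular to DM was asked with the other genotypes. Fitted on their own 8 libraries, WT mice gave 3047 DEGs between regions (16% of genes tested), *Kdm5c*-KO 4425 (23.3%) and *Kmt2a*-HET 6459 (33.1%), against 5946 in DM. The comparisons share no libraries. WT and DM had 2807 DEGs in common, 47.2% of those of DM and 92.1% of those of WT, *Kdm5c*-KO and DM had 3776 (63.5% and 85.3%), and *Kmt2a*-HET and DM had 4893 (82.3% and 75.8%). Opposite signs were found in 5, 3 and 2 of these shared DEGs. Whether called there or not, 5774 of 5880 DEGs of DM that were tested in WT (98.2%) had the same sign in WT. The shares were 98.0% in *Kdm5c*-KO and 98.9% in *Kmt2a*-HET. A call also depends on the spread within a genotype, so a DEG called in DM alone need not be absent elsewhere. The difference itself was tested as an interaction of region and genotype over all 32 libraries. Against WT, 15 of 18865 genes (0.0795%) had a region difference in DM that departed from that in WT, 10 (0.053%) toward the hippocampus and 5 (0.0265%) toward the amygdala. There were 7 of 32048 (0.0218%) against *Kmt2a*-HET and 3 of 32048 (0.00936%) against *Kdm5c*-KO. At an unadjusted p under 0.05 the numbers were 668, 477 and 620. The counts against WT, *Kmt2a*-HET and *Kdm5c*-KO were 0, 0 and 1 with spike-in scaling and 4, 3 and 0 in edgeR. Without 1 mouse they were 4 to 44, 6 to 17 and 0 to 18.

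*Cacng6* had the smallest adjusted p against WT. In normalised counts of the 32-library fit it was 626, 662, 418 and 511 in hippocampi and 41.8, 32.6, 37.5 and 54.9 in amygdalae of DM mice, against 31.6, 28.9, 48.9 and 22.7 and 62.6, 16.1, 22.01 and 10.2 in WT mice. Amygdala 1 of WT was above the others of its group, and every DM hippocampus was above every WT hippocampus. The region log2 fold change was 3.73 ± 0.29 in DM, 3.21 ± 0.30 in *Kdm5c*-KO, 1.41 ± 0.33 in *Kmt2a*-HET and 0.47 ± 0.33 in WT. The difference of DM from WT was 3.26 ± 0.44 (adjusted p = 2.53e-09), that from *Kmt2a*-HET was 2.32 ± 0.44 (adjusted p = 0.000656), and that from *Kdm5c*-KO was 0.52 ± 0.42 (adjusted p = 1). *Ido2*, an enzyme of tryptophan breakdown, was 219.6, 209, 191 and 174 in the DM hippocampi and 45.6, 11.96, 44.4 and 24.4 in the WT hippocampi, while its amygdalae were 26.6 to 32.1 in DM and 15.2 to 30.4 in WT. Its region difference departed by 2.54 ± 0.46 from WT (adjusted p = 0.00027) and by 2.82 ± 0.46 from *Kmt2a*-HET (adjusted p = 1.27e-05). In *Kdm5c*-KO, *Ido2* was 72.95, 128, 128 and 134 in hippocampi and 23.6 to 42.4 in amygdalae, a region log2 fold change of 1.85 ± 0.31, and the difference of DM from *Kdm5c*-KO did not pass (0.90 ± 0.44, adjusted p = 1). *Parvg*, an adaptor of integrin signalling, was 813, 561, 932 and 814 in the DM hippocampi and 406, 373, 285 and 228 in the WT hippocampi, and 151, 121, 169 and 141 and 255, 157, 136 and 123 in the amygdalae. Its difference was 1.45 ± 0.26 from WT (adjusted p = 0.00028), 1.06 ± 0.26 from *Kdm5c*-KO (adjusted p = 0.323) and 1.03 ± 0.26 from *Kmt2a*-HET (adjusted p = 0.294). Leaving out any 1 mouse of the pair of genotypes compared did not end the calls of these 3 genes against WT or that of *Ido2* against *Kmt2a*-HET, but spike-in scaling did, with differences from WT of 3.16 for *Cacng6*, 2.29 for *Ido2* and 1.35 for *Parvg* (adjusted p = 1 for each), and *Parvg* was not called without the mouse block (adjusted p = 0.145).

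Against *Kmt2a*-HET, *Dnah1*, *Pnck*, *Ido2* and *Cacng6* were among the 7 called. *Dnah1*, a dynein of cilia, was 999, 1209.5, 932 and 984 in amygdalae and 860.1, 809, 839 and 918 in hippocampi of DM mice, against 494, 490.1, 689 and 498 and 175, 163, 234 and 173 in *Kmt2a*-HET mice. It was thus higher in DM in both regions, and more so in the hippocampus, with a difference of region effects of 1.28 ± 0.20 (adjusted p = 8e-06). It was called against WT as well (0.98 ± 0.20, adjusted p = 0.00386), and against *Kdm5c*-KO the difference was 0.12 ± 0.19 (adjusted p = 1). *Pnck*, a calcium- and calmodulin-dependent kinase on the X chromosome, was 3149.7, 2451, 2418 and 3475 in amygdalae and 3697, 2561, 2895 and 2742 in hippocampi of DM mice, against 2505, 2406, 2462 and 2362 and 1318, 1057, 1425 and 1232 in *Kmt2a*-HET mice. The region log2 fold change was -0.96 ± 0.12 in *Kmt2a*-HET and -0.82 ± 0.12 in WT, but 0.05 ± 0.12 in DM and 0.01 ± 0.12 in *Kdm5c*-KO, and the departure of DM from *Kmt2a*-HET was 1.01 ± 0.17 (adjusted p = 5.73e-05). That from WT was 0.88 ± 0.17 (adjusted p = 0.00209). Spike-in scaling ended both calls, at 1.16 for *Dnah1* and 0.90 for *Pnck* (adjusted p = 1 for each).

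Against *Kdm5c*-KO, the 3 called genes all leaned toward the amygdala in DM. *Tac1* was 1973, 987, 396 and 1489 in amygdalae and 407, 82.5, 56.1 and 58.5 in hippocampi of *Kdm5c*-KO mice, against 1194, 1552, 1231 and 1341 and 31.6, 28.7, 34.3 and 34.6 in DM mice. Its difference of region effects was -2.05 ± 0.39 (adjusted p = 0.00482). *Gpr6*, an orphan receptor of striatal neurons, was 725, 325, 73.5 and 565 and 153, 13.1, 17.4 and 41.9 in *Kdm5c*-KO and 603, 704, 499.7 and 368 and 14.9, 11.5, 9.93 and 9.72 in DM, a difference of -2.39 ± 0.53 (adjusted p = 0.0589). Both are striatal markers. The hippocampus of *Kdm5c*-KO mouse 1 stood apart in both genes and in the summed striatal list (1669 CPM, against 709 to 844 CPM in the other 15 hippocampi), and the amygdala of *Kdm5c*-KO mouse 3 had the lowest sum of that group (1227 CPM). Without *Kdm5c*-KO mouse 1 neither gene was called (*Tac1* -1.66, adjusted p = 0.163, and *Gpr6* -2.01, adjusted p = 1), nor were they without mouse 3 (-1.88, adjusted p = 0.188, and -2.08, adjusted p = 1). Neither was called in edgeR, with spike-in scaling or without the mouse block (adjusted p = 1 for each), with differences of -2.09, -2.42 and -2.36 for *Tac1* and -2.43, -2.80 and -2.65 for *Gpr6*. *Tac1* was not called with only both genotypes in the fit (adjusted p = 0.357), and *Gpr6* was not called without DM mouse 1, 2 or 3. Both genes were also called against WT, by -1.81 ± 0.39 for *Tac1* (adjusted p = 0.00867) and -2.18 ± 0.53 for *Gpr6* (adjusted p = 0.0561). The amygdala of WT mouse 1 had the lowest striatal sum of its group (1459 CPM, against 3020 to 5807 CPM in the other WT amygdalae). In WT, *Tac1* was 412, 910.3, 663 and 1301 in amygdalae and 54.96, 62.8, 66.6 and 79.4 in hippocampi, and every WT hippocampus was above every DM hippocampus. These calls too were lost in edgeR (adjusted p = 0.625 and 0.822) and with spike-in scaling or without the mouse block (adjusted p = 1 for each), with differences of -1.73 to -2.01 for *Tac1* and -1.95 to -2.47 for *Gpr6*. The call of *Tac1* was lost without DM mouse 1 or 2 or WT mouse 1 (adjusted p = 0.102, 0.247 and 0.146), and that of *Gpr6* without DM mouse 1, 2 or 3 or WT mouse 1 or 3 (adjusted p = 0.204 to 0.75). The third gene, *2210418O10Rik*, was 87.3, 136, 184 and 99.4 in amygdalae and 0, 0, 0 and 6.48 in hippocampi of DM mice, and libraries at 0 stood next to well-counted ones in *Kdm5c*-KO (61.6, 56.9, 0 and 0 in the amygdala) and in WT (0, 105, 0 and 66.3 in the hippocampus), so its counts are uncertain.

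**Figure D4:**
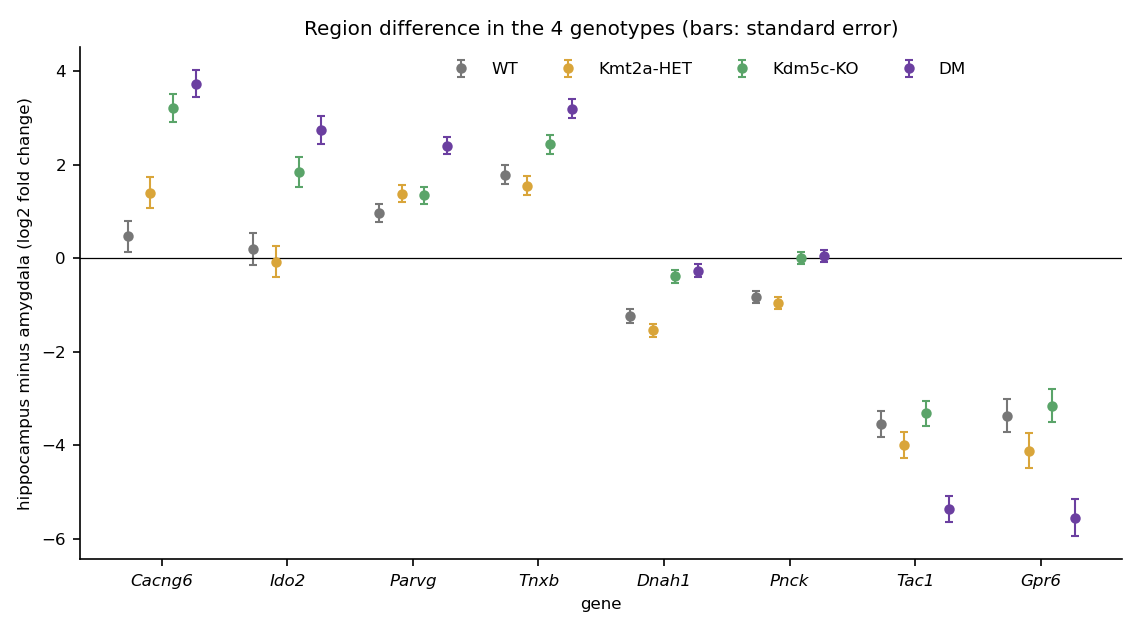
Log2 fold change of hippocampus to amygdala ± SE in WT, *Kmt2a*-HET, *Kdm5c*-KO and DM mice (4 mice each, 1 fit of 32 libraries) for 8 genes whose region difference in DM departed from another genotype. *Cacng6*, *Ido2*, *Parvg* and *Tnxb* lie highest in DM, *Dnah1* and *Pnck* separate WT and *Kmt2a*-HET from the genotypes without *Kdm5c*, and *Tac1* and *Gpr6* lie lowest in DM.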

How the data were processed

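Polyadenylated RNA of the microdissected amygdala and hippocampus of 16 adult male mice, 4 per genotype, was sequenced with ERCC spike-ins. The authors deposited gene-level expected counts per library, not normalised, in 1 table for each region; their processing notes name STAR 2.5.3a, Subread 1.5.0 (which holds FeatureCounts), deepTools 3.1.3, DESeq2 1.14.1 and build mm10. Reads that mapped to 1 place were kept and duplicates removed, which lowers counts of repeated families. Which estimator gave values that are not whole is not given in the sources used here. Of the expected counts 92.9% were whole, and all were rounded.

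The 8 DM libraries were fitted in DESeq2 1.42.0 (R 4.3.3) with mouse and region as terms, unshrunken fold changes, a Wald test and Benjamini-Hochberg adjustment over the genes tested, called under 0.1. Genes dropped by the default filters of DESeq2 on mean count and on outliers were not tested, so the number tested changed with the fit. This fit left 3 residual degrees of freedom. The Wald test refers to a normal distribution and uses dispersions that borrow from other genes, so its smallest p-values do not measure the spread between these 4 mice. In the quasi-likelihood test of edgeR the adjusted p was 1.74e-07 for *Tac1* and for *Oxt* and 6.51e-06 for *Arc*. The Wald test gave 2.28e-194, 1.09e-32 and 3.69e-46. Differences between genotypes were interaction terms in 1 fit of 32 libraries with 16 mouse terms. The labels give both regions of an animal the same number, so mouse was a block. Deviations from the region mean correlated at -0.109 to 0.208 within a mouse (median 0.140) and at -0.176 to 0.131 between mice. Replicate libraries differed beyond sampling noise (chi-square per gene 9.33 to 33.7).

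The comparison, the 41 gene lists and the choice of genes were made with earlier results of these data known. Named genes were the 8 with the smallest adjusted p in each direction, the 6 called with the largest fold in each direction at a mean normalised count of 100 or more (both with 4 of 4 mice in the direction), the targeted genes, the first 2 members of each list, up to 3 called members per direction of each list, and the 3 genes with the smallest adjusted p in each test between genotypes; exceptions are stated, and 6 genes that the rule named are not reported here. The floor of 3 counts covers counting error alone. Alternatives were edgeR 4.0.16, TMM and spike-in scaling, a low-count filter, no replicate block, other sets of libraries, a fold-change prior, a threshold of 0.05 and each mouse left out. On simulated counts of 28522 genes, the region fit recovered 86% of 2-fold and 100% of 4-fold changes, with 15.8% of calls false, and the interaction fit 82% and 94%, with 13.7% false. There 100 genes were changed 2-fold and 100 were changed 4-fold, none of them of low count. The recovery thus does not describe low-count genes, and the false share does not carry over to the calls in the data.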

Additional observations from a re-analysis of the deposited data

Results flagged for a closer look

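Of 415 groups of 4 libraries of a named gene or of a library measure, 24 held 1 library far from the other 3, about the 1 in 20 that chance gives. Values are normalised counts. In amygdala 4 these were *Oxt* (4798), *Otp* (454), *Hcrt* (234) and *Pmch* (383), which mark the hypothalamus, and *Cabp7* (901), *Sema3e* (252) and *Cdh24* (405). In amygdala 1 they were *Ttr* (35529.5), *Gfap* (7112) and *Pecam1* (286), in amygdala 2 *Ntn1* (991), and in amygdala 3 *Lhx6* (705) and *Sstr4* (126). In hippocampus 1 they were *Baiap3* (105), *Peg10* (172), *Meis2* (946), *Rorb* (378), *Gpr17* (1150.3) and *Gabra5* (4649), in hippocampus 2 *Neurod1* (429) and *Plxnd1* (1566), in hippocampus 3 *Grm4* (544), and in hippocampus 4 *Sox11* (385) and *Smyd3* (513).

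The region difference in DM departed from that of another genotype by the interaction test for the genes with the smallest adjusted p. The log2 differences from WT were 3.26 for *Cacng6*, 2.54 for *Ido2* and 1.45 for *Parvg*. Those from *Kmt2a*-HET were 1.28 for *Dnah1*, 2.82 for *Ido2* and 1.01 for *Pnck*, and those from *Kdm5c*-KO were -2.05 for *Tac1*, -2.39 for *Gpr6* and -12.87 for *2210418O10Rik*, the last from libraries at or near 0.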

How the results depend on the processing

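The count of 5946 region DEGs in DM was 6700 in edgeR, 5989 with TMM scaling, 6044 with a low-count filter, 6382 with all 32 libraries in the fit, 5908 with a fold-change prior, 5150 at a threshold of 0.05 and 6242 with no replicate block. It was 2614 with spike-in scaling and 4108 to 5091 without 1 mouse. Over the 219 named genes, 2500 alternative values kept direction and call, 102 kept direction and lost the call, 14 gained it and 5 changed sign, all of the last under spike-in scaling: *Lypd1* (0.034), *Mog* (0.0098), *Pdgfra* (0.16), *Gpr17* (0.078) and *Olig2* (0.048). The tally leaves out the region difference of *Dnah1*, which was named by the test against *Kmt2a*-HET. That difference was called lower and turned sign under spike-in scaling.

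The tests between genotypes moved more, and the cause was not tested. The 15 genes against WT were 0 with spike-in scaling (668 at an unadjusted p under 0.05 with the default), 4 in edgeR, 4 with no replicate block, 28 with only both genotypes in the fit and 4 to 44 without 1 mouse, the lowest without DM mouse 1 and the highest without WT mouse 2. The 3 against *Kdm5c*-KO were 1 with spike-in scaling, 0 in edgeR and with no replicate block (620 at an unadjusted p under 0.05 in the blocked DESeq2 fit), 7 with only both genotypes and 0 to 18 without 1 mouse, the lowest without *Kdm5c*-KO mouse 3 and the highest without DM mouse 4. The 7 against *Kmt2a*-HET were 0 with spike-in scaling (477 at an unadjusted p under 0.05 with the default), 3 in edgeR, 5 with no replicate block, 24 with only both genotypes and 6 to 17 without 1 mouse, the highest without *Kmt2a*-HET mouse 3.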
